A study of Mus musculus with 8 samples.

Results

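Tieghemelin-treated skin was compared with water-treated skin across the genes of a microarray. The comparison took the 2 arrays titled tieghemelin against the 2 titled control, 4 of the 8 arrays of the series, and used the 22206 probe sets that are no control features of the array. Tieghemelin is a plant triterpenoid saponin, applied here at 1%, and the controls received Milli-q water. All skin came from the back of male C3H mice, an inbred strain, that were 7 weeks old at the start, were depilated with a cream and then treated on the skin each day for 20 days. The other 4 arrays, 2 for 1% minoxidil and 2 for 1% maslinic acid, came from mice handled in the same way and entered the fit for the spread between arrays. Minoxidil array 2 is given as 1% in one label and 2% in another. No allele or transgene was named for any group. The labels give 8 mice per group but do not tie an array to a mouse, so p-values here reflect array-to-array spread, part or all of which may be technical. The mice had been set up to study hair growth under tieghemelin and maslinic acid.

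Depilation sets the hair follicles of the treated area growing together, and follicle keratinocytes, dermal papilla cells and the fat below them then change over the weeks of a hair cycle. Under the dermal fat of mouse back skin lies the panniculus carnosus, a thin sheet of mainly fast-twitch skeletal muscle, so a piece of back skin carries RNA of epidermis, follicles, dermis, fat, vessels, immune cells and muscle. Fast-twitch muscle builds its sarcomeres from myosin heavy chains such as Myh4 and Myh1, fast troponins and tropomyosins, and runs on glycolysis.

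The control arrays differed from each other more than the tieghemelin arrays did. The median absolute difference between the arrays of a pair was 0.89 log2 units for control and 0.29 for tieghemelin, and 55.1% and 96.3% of probe sets lay within 1 unit. Across probe sets, Pearson's r of control array 1 with each other array was 0.518 to 0.538, and among the other 7 arrays it was 0.901 to 0.966. Background, taken as the median of the antigenomic probe sets of an array, was 7.75 and 7.61 in control and 7.02 and 6.97 in tieghemelin skin. A fold given as "at least" for a lower gene is taken from the tieghemelin background, so it includes this gap. Below, "above background" means above the background of the same array, which is no detection call for 1 probe set. The counts for each gene list are given with all 8 arrays and with control array 2 alone, that is without control array 1, where the lone control is assumed to vary like the other groups. Skin markers were present: the keratinocyte genes Krt5, Krt1 and Krt10 lay above background on all 4 arrays, and Krt14 on all but control array 1, whereas Lor, a cornified envelope gene, lay below background on every one of the 4.

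With all 8 arrays, 0 of 22206 probe sets had an adjusted p under 0.05 in limma (smallest adjusted p = 0.364), and 2609 (11.7%) had an unadjusted p under 0.05. All 2609 also met the thresholds of the series' design text, a 1.7-fold difference or more with a p of 0.05 or less before adjustment. Of these, 1558 (7.02% of all probe sets) were higher and 1051 (4.73%) were lower with tieghemelin. Against control array 2 alone, 79 probe sets (0.356%) had an adjusted p under 0.05, 64 lower (0.288%) and 15 higher (0.0675%), with adjusted p from 0.0048 to 0.0491. The thresholds of the design text were then met by 1473 higher (6.63%) and 1580 lower (7.12%). Both sets of arrays gave the same direction at those thresholds for 771 higher (3.47%) and 547 lower (2.46%) probe sets. Without control array 2 the adjusted count was 8427 (37.9%), 43 of them shared with the 79. Without tieghemelin array 1 or 2 the 2609 became 815 or 999, with 0 at an adjusted p under 0.05. Of the 79, 44 also met the thresholds with all 8 arrays, 49 had tieghemelin values that did not overlap the controls (38 lower and 11 higher; over all probe sets 18.4% and 22.2%), and 27 differed from control array 1 in the opposite direction. The 79 were called on their difference from control array 2, which fixes part of such separation, so nothing is read from these shares.

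Genes of 5 skeletal muscle lists, called the lists of fast muscle here, were mostly lower with tieghemelin. The name is a short one, since they also hold genes not restricted to fast fibres, such as Des, Ttn, Mb and Gapdh. The 5 lists held 102 measured genes. With all 8 arrays 33 of them (32.4%, against 4.73% of all probe sets) were lower at the thresholds and 2 were higher. Against control array 2 alone 57 were lower (55.9%, against 7.12%) and 1 was higher, and 29 had an adjusted p under 0.05, all lower. The median difference over the 102 was -0.95 log2 units with all 8 arrays, -1.40 against control array 2 alone and -0.64 against control array 1 alone, beside 0.05, 0.02 and 0.08 for all probe sets. In the same order, 83, 84 and 73 of the 102 differed downward and 19, 18 and 29 upward. Over all probe sets 47.6%, 48.8% and 47.2% differed downward. The lists were drawn up when lower muscle values in these arrays were already known, so the counts are no independent evidence of direction. In bulk skin, fewer muscle fibres in the sample and less RNA per fibre cannot be told apart.

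Thin filament genes had a median difference of -3.95. Of 11 measured members 9 were lower at the thresholds and 1, Tmod1, was higher (0.97, SE 0.38, and 0.88 against control array 2 alone, where it did not pass), while 10 were lower and 7 had an adjusted p under 0.05 against control array 2 alone. Tnnt3, the fast troponin T that anchors the troponin complex on tropomyosin, read 15.87 and 16.25 in control skin and 8.68 and 6.94 with tieghemelin. Both tieghemelin values lay under all 6 others, far outside the control pair, and the second was just under background. The difference was -8.26 (SE 1.15) with all 8 arrays and -8.44 (SE 1.23, limma adjusted p = 0.0274) against control array 2 alone. Tpm2, a tropomyosin that blocks myosin binding at rest, read 13.21 and 13.80 against 9.10 and 8.89, again with no overlap and under all other arrays. It differed by -4.51 (SE 0.56) and -4.80 (SE 0.57, adjusted p = 0.0179). Acta1, skeletal actin, read 12.83 and 14.80 against 9.69 and 8.97, a difference of -4.48 (SE 0.77) and, with control array 2 alone, -5.46 (adjusted p = 0.0179). Neb, the ruler protein of the thin filament, read 10.40 and 13.58 in control skin. With tieghemelin it read 6.85 and 6.18, below background, so it was at least 31.8-fold lower (at least 95.9-fold against control array 2 alone). For Tpm1, another tropomyosin gene, the controls read 11.90 and 18.31, so the size depended on the control: -1.32 against control array 1 and -7.72 against control array 2 (adjusted p = 0.0274). Tnni2 and Tnnc2, the fast troponins I and C, differed by -3.95 and -3.23 with all 8 arrays, and Tnnc2 had an adjusted p of 0.0477 against control array 2 alone.

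Among 14 thick filament genes 5 were lower at the thresholds with all 8 arrays and 11 against control array 2 alone, 5 of them with an adjusted p under 0.05, and 0 were higher. Myh4, the myosin heavy chain of the fastest fibres, read 17.03 and 16.77 in control skin and 9.26 and 9.15 with tieghemelin. The groups lay far apart and each pair agreed closely, although maslinic acid array 2, at 9.05, was lower still. The difference was -7.69 (SE 1.31), and its adjusted p against control array 2 alone was 0.0595. Myh8, the perinatal myosin, read 17.94 and 17.59 against 11.20 and 10.38 (-6.97, SE 0.86, adjusted p = 0.0241 against control array 2 alone). Myh1, the myosin of type IIx fibres, read 13.09 and 14.15 against 8.59 and 8.62 (-5.02, SE 0.69, adjusted p = 0.0179). Myh2, of type IIa fibres, separated from control array 2 only: 8.16 and 12.04 against 7.77 and 8.24, with -2.09 (SE 1.15) for all 8 arrays and -4.04 (adjusted p = 0.0397) against control array 2. The regulatory light chain gene Mylpf differed by -7.29 (SE 1.89) and the essential light chain gene Myl1 by -4.83 (SE 2.18), the latter from controls of 12.04 and 18.60. Mybpc1, a myosin-binding protein, differed by -3.07 (SE 0.83) and -4.41 (adjusted p = 0.0179). Myh3, the embryonic myosin, and Myh13, of eye and throat muscle, did not pass any threshold in either fit (-0.06 and -0.79).

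**Figure D1:**
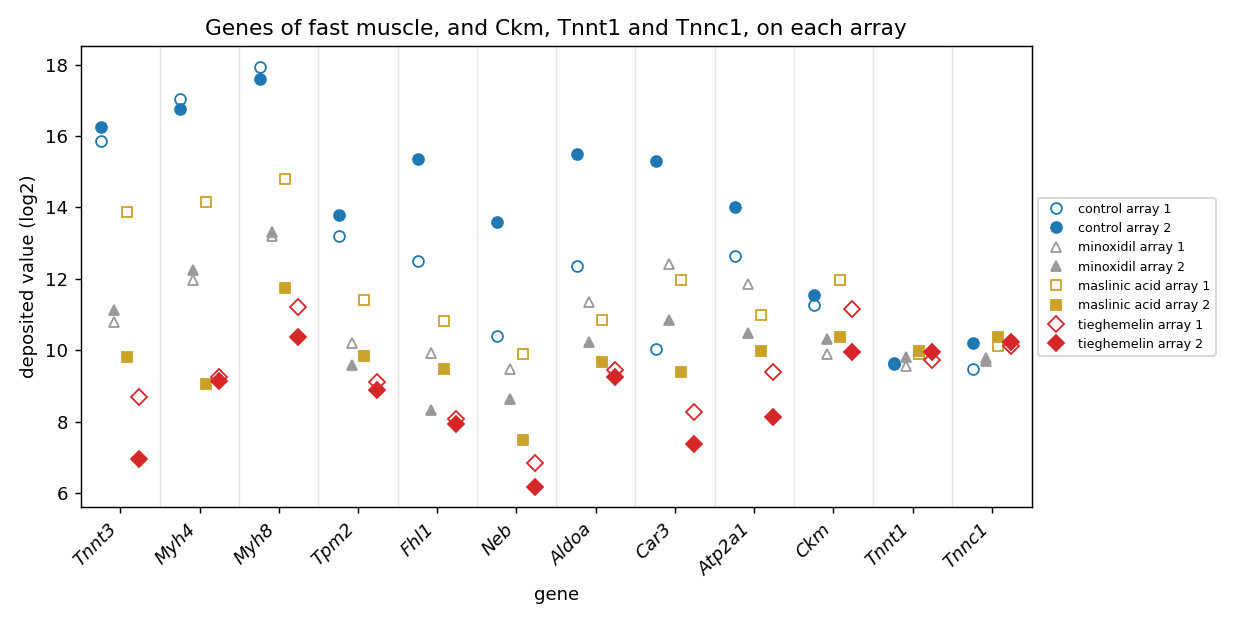
Deposited log2 values (vertical axis) of 12 muscle genes on each of the 8 arrays, open symbols for array 1 and filled for array 2 of a group. For the first 9 genes both tieghemelin diamonds lie under both control circles, while Tnnt1 and Tnnc1 read 9.72 to 10.24 with tieghemelin, close to their controls.

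Myh1, Myh4 and Myh8 lie side by side in a cluster of myosin genes on chromosome 11, and Mylpf on chromosome 7. Whether the probe sets of these neighbouring myosin genes read shared sequence was not tested. Their promoters are shown because these members carried large differences and are known as fast muscle genes. Each is the 300 bases from 250 before to 50 after the RefSeq start on GRCm38.p6, plus strand: chr11:67199852-67200151, chr11:67237562-67237861, chr11:67276874-67277173 and chr7:127211358-127211657. Capitals mark 3 motifs of 6 letters on either strand and at any position. They are TATAAA, the letters of a TATA box, CAGCTG, an E-box that MyoD-family factors can bind, and CATTCC, the core of the MCAT element. No marked motifs overlapped.
Myh1: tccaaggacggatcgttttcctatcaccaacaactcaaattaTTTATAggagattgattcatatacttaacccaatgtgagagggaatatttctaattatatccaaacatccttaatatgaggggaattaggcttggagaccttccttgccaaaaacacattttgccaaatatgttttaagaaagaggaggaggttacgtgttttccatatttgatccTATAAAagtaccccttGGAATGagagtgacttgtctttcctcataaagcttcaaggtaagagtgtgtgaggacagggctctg
Myh4: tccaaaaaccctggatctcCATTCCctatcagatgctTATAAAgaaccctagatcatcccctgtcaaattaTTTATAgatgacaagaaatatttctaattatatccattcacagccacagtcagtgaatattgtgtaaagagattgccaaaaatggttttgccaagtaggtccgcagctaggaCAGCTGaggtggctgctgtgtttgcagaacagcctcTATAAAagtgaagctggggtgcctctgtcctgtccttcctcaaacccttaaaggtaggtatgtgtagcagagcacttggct
Myh8: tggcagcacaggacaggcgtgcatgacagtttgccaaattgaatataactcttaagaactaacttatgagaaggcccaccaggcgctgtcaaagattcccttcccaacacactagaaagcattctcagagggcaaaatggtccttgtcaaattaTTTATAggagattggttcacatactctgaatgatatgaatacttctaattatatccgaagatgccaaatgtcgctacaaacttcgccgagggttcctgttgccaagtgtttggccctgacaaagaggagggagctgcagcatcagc
Mylpf: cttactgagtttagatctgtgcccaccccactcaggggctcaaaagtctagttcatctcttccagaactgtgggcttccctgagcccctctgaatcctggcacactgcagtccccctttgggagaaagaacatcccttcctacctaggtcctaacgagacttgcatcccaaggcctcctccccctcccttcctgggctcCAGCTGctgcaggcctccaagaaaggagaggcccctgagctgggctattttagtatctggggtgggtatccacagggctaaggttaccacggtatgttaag
The Myh4 window held 3 TATAAA, 1 CAGCTG and 1 CATTCC, Myh1 held 2 TATAAA and 1 CATTCC, Myh8 held 1 TATAAA, and Mylpf held 1 CAGCTG. Of the 102 fast muscle genes, 77 had a promoter in the RefSeq table, and 36 of these (46.8%) held CAGCTG, against 18.3% of the 27025 genes in the table. TATAAA was found in 19.5% against 15.7%, and CATTCC in 23.4% against 16.6%. Among the 44 with a promoter that were lower at the thresholds against control array 2 alone, CAGCTG was found in 45.5%. Genes with several starts count once, if any of their windows held the motif.

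The Z-disc and muscle cytoskeleton list held 27 genes, of which 8 were lower and 1 higher with all 8 arrays, and 15 lower and 1 higher against control array 2 alone, 6 with an adjusted p under 0.05. Fhl1, a LIM protein of muscle, read 12.49 and 15.35 in control skin and 8.07 and 7.94 with tieghemelin, under all 6 other arrays. It differed by -5.92 (SE 0.94), and by -7.35 (SE 0.66) against control array 2 alone, where its adjusted p of 0.0048 was the smallest of any probe set, as was that of Aldoa. Actn2, an alpha-actinin that crosslinks actin at the Z-disc, read 11.21 and 10.91 against 8.58 and 8.75, with close pairs and no overlap (-2.39, SE 0.36, adjusted p = 0.0397 against control array 2 alone). Des, desmin, read 10.70 and 9.70 against 7.02 and 7.16 (-3.11, SE 0.49, adjusted p = 0.0428). Klhl41, which stabilises nebulin, differed by -3.17 (SE 0.65, adjusted p = 0.0179). Myot, myotilin, shows how much rested on the control used: at 8.60 and 14.11 in control skin and 10.69 and 9.87 with tieghemelin, the treated values lay between the controls, above array 1 by 1.68 and below array 2 by 3.83 (adjusted p = 0.0343). The 1 higher member, Obsl1, lay below background on all 4 arrays.

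Of 26 genes for calcium handling and excitation 6 were lower with all 8 arrays and 8 against control array 2 alone, 5 of these with an adjusted p under 0.05, and 0 were higher. Atp2a1, the calcium pump of fast muscle, read 12.63 and 14.02 against 9.39 and 8.14, under all other arrays (-4.56, SE 0.71, adjusted p = 0.0179 against control array 2 alone). Ryr1, the calcium release channel, read 7.88 and 8.98 in control skin and was below background with tieghemelin, at least 2.71-fold lower. Trdn, Casq1, Pvalb and Asph had adjusted p values of 0.0456, 0.0274, 0.0375 and 0.0198 against control array 2 alone. Of these 4, the tieghemelin pair lay under both controls for Trdn, triadin, and Pvalb, parvalbumin, and between them for Casq1, calsequestrin, and Asph. Stac3, an adaptor protein of excitation-contraction coupling, read 14.49 and 13.42 against 13.77 and 13.63, between its controls (-0.25, SE 0.43).

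Energy supply genes were lower in part. Of 24 members 5 were lower with all 8 arrays and 13 against control array 2 alone, 6 with an adjusted p under 0.05, and 0 were higher in either. Aldoa, a glycolytic aldolase, read 12.35 and 15.51 in control skin and 9.45 and 9.25 with tieghemelin, under all other arrays (-4.58, SE 0.95, and -6.16, SE 0.56, adjusted p = 0.0048). Car3, a carbonic anhydrase of muscle and fat, read 10.04 and 15.29 against 8.27 and 7.36 (-4.85, SE 1.56, adjusted p = 0.0179 against control array 2 alone). Mb, myoglobin, read 10.55 and 12.38 against 8.71 and 8.79 (-2.71, SE 0.64, adjusted p = 0.0198). Pygm, the muscle glycogen phosphorylase, and Eno3, the muscle enolase, had adjusted p values of 0.0374 and 0.0397. Pfkm, muscle phosphofructokinase, at 8.80 and 8.55, lay between its controls of 7.78 and 11.52. Ckm, the muscle creatine kinase, did not pass: 11.26 and 11.56 in control skin, 11.16 and 9.96 with tieghemelin, a difference of -0.85 (SE 0.61).

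Slow and cardiac isoforms of the same proteins gave counts near those of all probe sets. Of 16 measured members 0 were lower and 0 higher with all 8 arrays, where 4.73% and 7.02% of all probe sets were called. Against control array 2 alone 0 were lower and 1, Tnni3, the cardiac troponin I, was higher, at least 1.12-fold from a control below background, beside 7.12% and 6.63%. Their median difference was -0.04 with all 8 arrays, 0.16 against control array 2 alone and -0.43 against control array 1 alone. In the last fit the differences of single members ran from -3.21 to 1.90, beside -8.07 to 9.49 over all probe sets. Tnnt1, slow troponin T, read 9.60 and 9.63 in control skin and 9.72 and 9.94 with tieghemelin (0.22, SE 0.34). Tnnc1, the troponin C of slow and cardiac muscle, read 9.46 and 10.21 against 10.12 and 10.24, and Myh7, the slow myosin, 8.37 and 7.52 against 7.97 and 7.74. No test of fast against slow lists was made, and the 5 lists called fast muscle also hold genes not restricted to fast fibres. Of 12 measured myogenic regulators and satellite cell genes, Mef2d was lower (-1.27, SE 0.38) and Eya1 higher (1.92, SE 0.57) with all 8 arrays, and 4 were lower and 2 higher against control array 2 alone. Mef2c read 7.08 and 11.19 against 8.79 and 8.88, so its adjusted p of 0.0397 rested on control array 2. Myog, a factor of differentiating myoblasts, read 7.80 and 7.98 against 7.82 and 7.26 and did not pass. Among 16 smooth muscle and pericyte genes 2 were lower with all 8 arrays, Des, which skeletal muscle shares, and Tagln. The 1.75-fold of Tagln includes the higher background of the control arrays. Against control array 2 alone Des was the 1 called.

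The 79 probe sets with an adjusted p under 0.05 against control array 2 alone included 30 in a muscle list, all among the 64 lower. Of the 64, 19 had both tieghemelin values under all 6 other arrays (2.58% over all probe sets), a pattern that their selection favours. Several others are known from muscle or mitochondria. Ndrg2 read 10.37 and 10.28 in control skin and 7.34 and 6.76 with tieghemelin, under all other arrays (-3.28, SE 0.46, and -3.23, adjusted p = 0.0274). Zfp106, an RNA-binding zinc finger gene of muscle and motor neurons, read 10.98 and 10.89 against 8.21 and 8.22 (-2.73, SE 0.44, adjusted p = 0.0456). In both, the controls agreed and the pairs did not overlap. Slc25a4, the ADP/ATP carrier of heart and muscle, differed by -2.97 (SE 1.08) and -4.58 (adjusted p = 0.0404), and Ak1, an adenylate kinase, was at least 4.90-fold lower. Eif3f and Gspt1, translation factors, were at least 2.82- and 2.58-fold lower and under all other arrays. Ccng1, Serpinb6a, Vdac1, Atp5a1, B2m and Rpl41 had adjusted p values from 0.0179 to 0.0444, but their tieghemelin values lay above control array 1. Dhtkd1, at 7.44 and 7.28 against 5.06 and 5.24, and Zfp36l2 were below background on all 4 arrays.

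Ribosomal protein genes and respiratory chain genes, which every cell uses, turned with the control array. Of 62 ribosomal protein genes 32 were lower against control array 2 alone (51.6%, against 7.12% of all probe sets) and 7 with all 8 arrays (11.3%, against 4.73%), while against control array 1 alone 37 were higher (59.7%, against 26.3%). Their medians were -1.03, 0.19 and 1.62 in that order. For 46 of the 62, tieghemelin was above control array 1 and below control array 2. Of the 7, 6 were lower in both fits: Rps21, Rplp0, Rpl28, Rpl23, Rpl37 and Rpl7l1. Rpl37, of the large subunit, read 10.74 and 10.95 against 8.66 and 9.25 (-1.89, SE 0.45), and Rpl28, of the same subunit, 10.43 and 10.80 against 9.07 and 9.5 (-1.33, SE 0.39). Of 40 respiratory chain genes 18 were lower against control array 2 alone and 5 with all 8 arrays, with medians of -0.91 and -0.16, and the median against control array 1 was 0.57. Ndufv1, a core subunit of complex I, read 10.19 and 10.14 against 8.73 and 8.97 (-1.31, SE 0.35), with agreeing controls. Of the 102 fast muscle genes 62 lay under both control arrays and 22 above array 1 and below array 2. The part of control array 1 in these values was not tested beyond leaving it out.

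**Figure D2:**
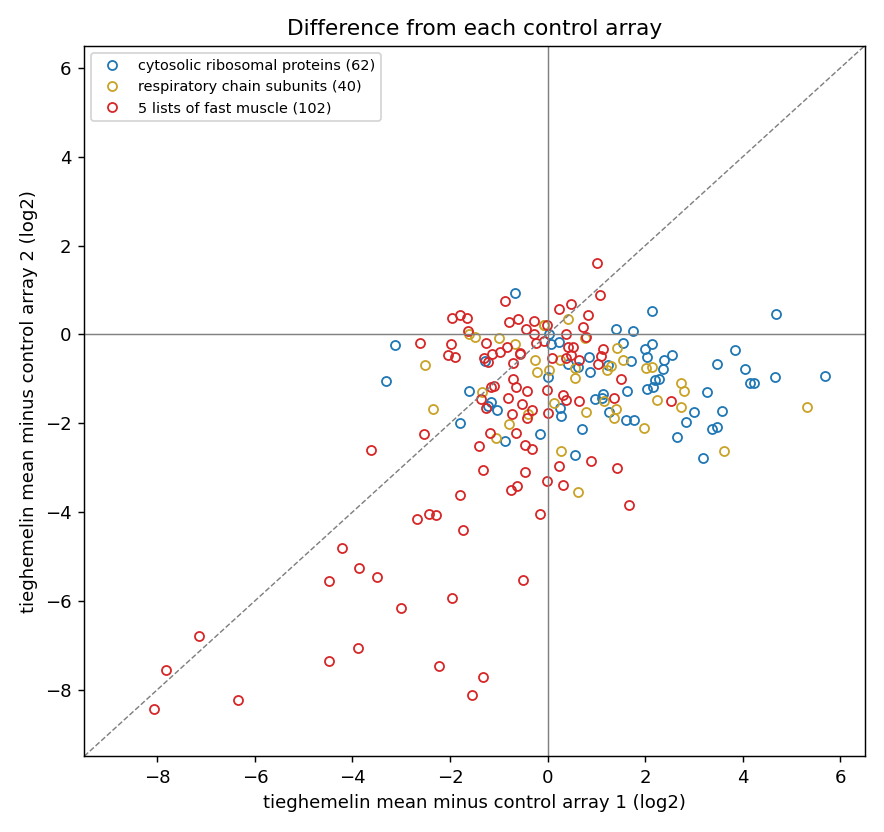
Difference of the tieghemelin mean from control array 1 (horizontal axis) and from control array 2 (vertical axis), log2 units, for each gene of 3 groups of lists, with the dashed line marking equal differences. Fast muscle genes run toward the lower left, down to -8.07 and -8.44, whereas 46 of 62 ribosomal protein genes lie at the lower right, above control array 1 and below control array 2.

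**Figure D3:**
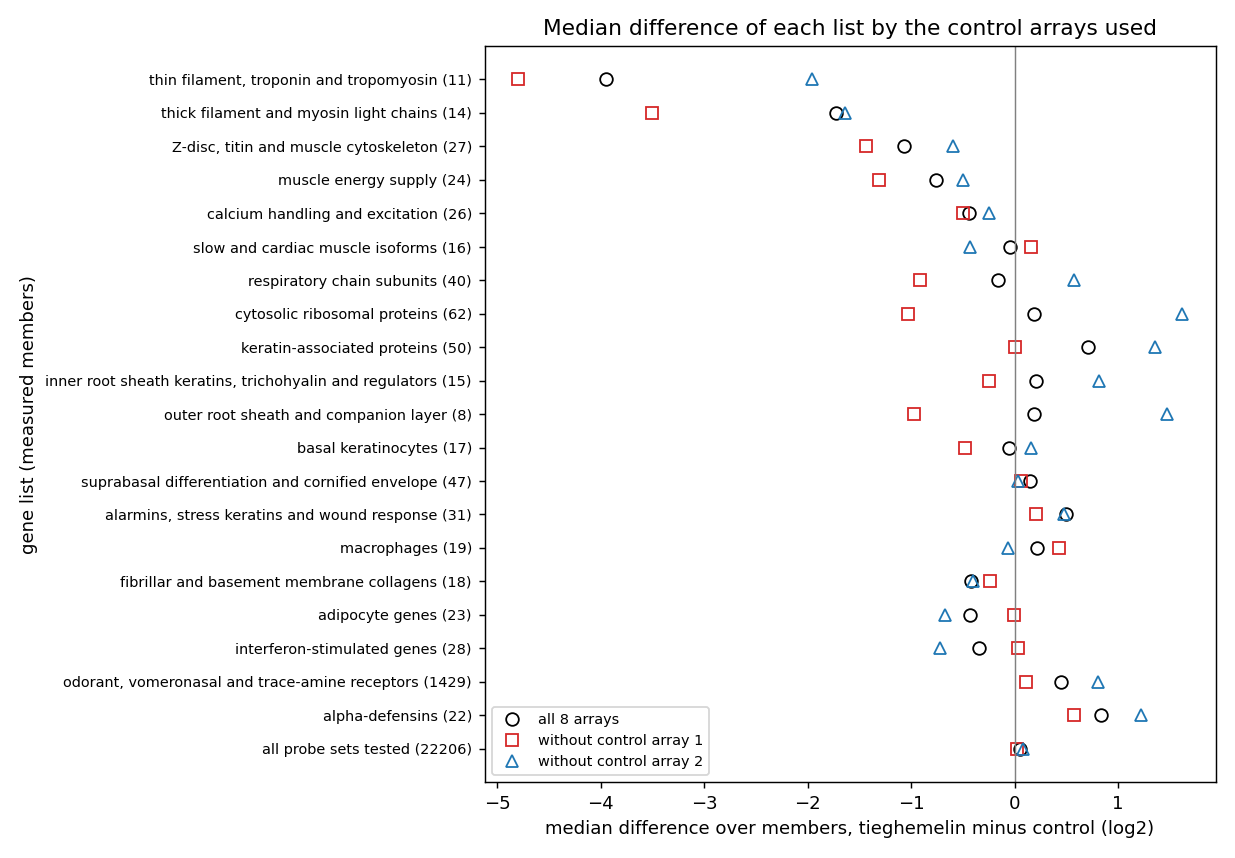
Median difference of tieghemelin from control over the members of 21 lists, log2 units, with all 8 arrays (circles), without control array 1 (squares) and without control array 2 (triangles). The 5 fast muscle lists lie below 0 with each choice, and ribosomal, respiratory chain and root sheath lists change side. The lists of slow and cardiac isoforms, basal keratinocytes, macrophages and interferon-stimulated genes also change side.

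Basal keratinocyte genes went both ways. Of 17 measured 2 were lower and 2 higher with all 8 arrays (4.73% and 7.02% of all probe sets), and 7 lower and 1 higher against control array 2 alone (7.12% and 6.63%). These shares of all probe sets are the background for every skin list that follows. Krt5, the keratin of basal cells, read 10.09 and 13.72 in control skin and 9.27 and 9.77 with tieghemelin, a difference of -2.39 (SE 1.12) with all 8 arrays and -4.20 (SE 0.70, adjusted p = 0.0404) against control array 2 alone. Krt71, of the inner root sheath, read 9.03 and 13.97 against 9.72 and 9.68, so that it was above control array 1 and below control array 2 (-4.27, SE 0.73, adjusted p = 0.0435). Krt14, the partner of Krt5, read 7.26 and 10.68 against 8.80 and 9.38 and likewise lay between. Trp63, the master regulator of the basal layer, had agreeing controls, 9.79 and 10.15 against 8.38 and 8.53, and differed by -1.51 (SE 0.42) and -1.69 (adjusted p = 0.139). Itga6, the hemidesmosome integrin, lay the other way: its controls, at 7.74 and 7.46, were below background, and 9.08 and 8.84 with tieghemelin put it at least 2.42-fold higher.

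Of 47 suprabasal genes 3 were lower and 4 higher with all 8 arrays, and 7 lower and 4 higher against control array 2 alone, the higher ones at 8.51% in both. Tgm1, the transglutaminase that crosslinks the cornified envelope, read 7.02 and 8.46 against 9.48 and 9.68, above all 6 other arrays (1.84, SE 0.49, and 1.12 against control array 2 alone). Cdsn, corneodesmosin, differed by 0.86 (SE 0.35). Krtdap, a secreted keratinocyte protein, Dsp, desmoplakin of the desmosome, and Calml3, a calmodulin-like protein, were the 3 lower ones, with differences of -1.33, -1.20 and -0.99. Of 31 alarmin and wound response genes 4 were higher (12.9%, beside 7.02% of all probe sets) and 0 lower with all 8 arrays, and 4 higher and 1 lower against control array 2 alone, with medians of 0.50 and 0.21. S100a9, a calprotectin subunit, read 8.16 and 7.60 against 8.99 and 10.04, above both controls on both arrays (1.63, SE 0.44). Il1f6, which encodes the cytokine IL-36 alpha, read 7.40 and 7.83 against 8.73 and 9.21 (1.36, SE 0.44, and 1.15 against control array 2 alone). S100a8, the partner of S100a9, reached 10.13 on tieghemelin array 2 and 7.33 on array 1, so the pair itself was apart. None of these had an adjusted p under 0.05 in either fit.

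In the hair shaft, 7 of 50 keratin-associated protein genes were higher and 2 lower with all 8 arrays, and 3 higher and 5 lower against control array 2 alone. Krtap7-1, a high glycine-tyrosine member, read 8.69 and 8.63 against 6.26 and 6.42 with no overlap, at least 3.17-fold lower (limma adjusted p = 0.0556 against control array 2 alone). Krtap19-5 was lower (-1.32, SE 0.47) and Krtap19-1 higher (1.35, SE 0.51), both in either fit, so that members of 1 subfamily went different ways. Of 9 type I hair keratins 2 were higher and 1 lower in each fit. Krt39 and Krt40 were the higher ones, by 1.37 (SE 0.38) and 0.99 (SE 0.39) with all 8 arrays, and the lower one there, Krt32, was below background on all 4 arrays. Krt28, of the inner root sheath, read 9.21 and 9.35 against 8.30 and 8.18 (-1.04, SE 0.33). Tchh, trichohyalin, at 9.23 and 9.24 against 10.09 and 10.39, missed the thresholds (1.00, SE 0.45).

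**Figure D4:**
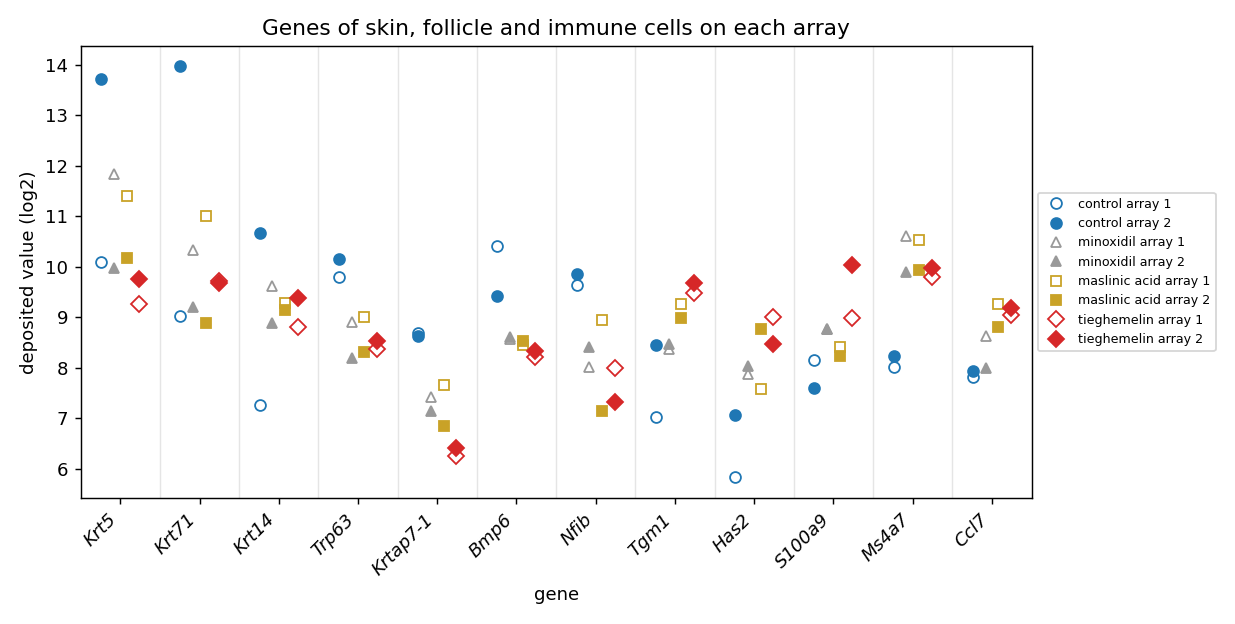
Deposited log2 values of 12 genes of keratinocytes, follicle, dermis and immune cells on each of the 8 arrays, open symbols for array 1 and filled for array 2 of a group. The control circles lie far apart for Krt5 (10.09 and 13.72), Krt71 and Krt14, and close together for Trp63 (9.79 and 10.15), Krtap7-1 and Ms4a7.

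Among 4 lists of hair cycle signals, 0% to 6.67% of members were lower and 4.55% to 13% higher with all 8 arrays, beside 4.73% and 7.02% of all probe sets. Bmp6, a BMP ligand linked to the resting phase of the follicle, read 10.42 and 9.42 in control skin and 8.21 and 8.34 with tieghemelin (-1.64, SE 0.41, and -1.14 against control array 2 alone). Nog, the BMP antagonist noggin, met the thresholds upward, 6.54 and 6.05 against 7.62 and 7.38, but its controls were below background and no fold is given. Of 30 genes of the BMP, activin and TGF-beta pathway 2 were lower and 2 higher with all 8 arrays, and 1 and 1 against control array 2 alone. Of 44 WNT pathway genes 0 were lower and 2 higher with all 8 arrays, and 3 and 2 against control array 2 alone. Of 29 growth factor ligands and receptors 1 was lower and 3 higher in each. Among the latter, Fgf1 and the VEGF receptor gene Kdr were at least 1.40- and 1.32-fold higher. Vegfa, the main angiogenic ligand, at 10.07 and 10.38 against 11.25 and 11.23, just missed the thresholds (1.02, SE 0.44). Shh, the ligand of growing follicles, differed by -0.14 (SE 0.35). Of 23 hedgehog and Notch genes 1 was lower and 3 higher with all 8 arrays, and 1 and 1 against control array 2 alone. The lower one was Ptch1, the Shh receptor, below background with tieghemelin. Its 1.46-fold includes the higher background of the control arrays, so it is no bound on the change in signal above background. The 3 higher ones belong to the Notch pathway: Notch2, a receptor, at least 1.33-fold, Dll1, a ligand, by 1.45, and Hey1, a target, by 1.17. Nfib, a factor of follicle stem cells, read 9.64 and 9.85 against 8.00 and 7.33 (-2.08, SE 0.59, and -2.18), with agreeing controls and no overlap. Lgr5, a receptor of follicle stem cells, met the thresholds against control array 2 alone (0.86) and not with all 8 arrays (0.65).

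In the dermis, 2 of 18 collagen genes were lower and 0 higher in each fit, with all 8 arrays Col6a5 (-0.97, SE 0.39) and Col14a1 (-1.44, SE 0.56, and -0.55 against control array 2 alone). Col1a1, the main fibrillar collagen, read 7.64 and 10.30 against 9.56 and 9.74, between the controls, and Col3a1 differed by -2.61 (adjusted p = 0.0635) against control array 2 alone. Has2, the hyaluronan synthase, read 5.83 and 7.06 in control skin, below background, and 9.0 and 8.47 with tieghemelin, at least 2.07-fold higher. It was 1 of 3 higher members of a matrix list of 34 with 1 lower, and against control array 2 alone 7 of the 34 were lower (20.6%, beside 7.12% of all probe sets) and 1 higher, with a median of -0.21. Of 23 fat cell genes 0 met the thresholds with all 8 arrays, and 2, Fabp4 and Cd36, were lower against control array 2 alone (-3.25 and -2.54). Adipoq, adiponectin, read 8.47 and 8.85 against 8.95 and 8.14.

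Among immune genes, 4 of 19 macrophage genes were higher (21.1%, beside 7.02% of all probe sets) and 0 lower with all 8 arrays, and 2 were higher (10.5%, beside 6.63%) and 0 lower against control array 2 alone. Their median was 0.22, 0.43 and, against control array 1 alone, -0.06. Ms4a7, a marker of tissue macrophages, read 8.02 and 8.24 against 9.79 and 9.98 (1.76, SE 0.41, and 1.65, adjusted p = 0.143), with close pairs. Mrc1, the mannose receptor, read 8.32 and 10.90 against 11.76 and 11.54, and Lyz2, lysozyme, 7.07 and 8.55 against 9.11 and 9.51. Other defining macrophage genes did not pass: Adgre1, a membrane marker of mature macrophages, read 8.83 and 8.74 against 8.71 and 8.76, and Csf1r, the receptor for colony-stimulating factor, was above background on 1 of the 4 arrays (0.46, SE 0.52). Ccl7, a monocyte chemokine, read 7.82 and 7.93 against 9.04 and 9.18 (1.23, SE 0.38). Of 28 interferon-stimulated genes 2 were lower and 0 higher with all 8 arrays, and 3 and 1 against control array 2 alone, and their median turned from -0.34 to 0.03 without control array 1. Among 22 clock genes 3 were higher and 0 lower with all 8 arrays, and 3 and 1 against control array 2 alone. With all 8 they were Per1, Per2 and Npas2, each with controls below background. Per2 read 6.21 and 6.23 against 7.60 and 7.60.

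Among the genes higher with tieghemelin were members of families known from other tissues. Some of the higher probe sets with an adjusted p under 0.05 lie on the Y chromosome, a set given below. The 15 probe sets with an adjusted p under 0.05 held 8 named genes, and 5 of the 15 read above all 6 other arrays on both tieghemelin arrays (2.81% over all probe sets), which their selection also favours. Olfr206, an odorant receptor gene, read 6.14 and 5.82 in control skin, below background, and 8.35 and 8.90 with tieghemelin, at least 1.92-fold higher (adjusted p = 0.0274). Defb46, a beta-defensin gene, read 8.79 and 9.70 against 12.18 and 11.99 (2.84, SE 0.44, and 2.38, adjusted p = 0.0397). The minoxidil and maslinic acid arrays read between 11.64 and 12.29 for Defb46, as high as tieghemelin. Gm14308, a predicted gene, read 8.26 and 8.30 against 10.34 and 10.59 (2.18, SE 0.36, adjusted p = 0.0441). Gm20871, another predicted gene, read 9.77 and 11.16 against 13.49 and 13.93, above all 6 other arrays (3.25, SE 0.53, adjusted p = 0.0397). For Gm826, Podn, Tmprss7 and Mgat4f, also among the 8, control array 1 read higher than control array 2 (9.68 and 7.61 for Tmprss7), and Gm826 and Podn did not exceed control array 1.

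Of 22 alpha-defensin genes, known from Paneth cells of the gut, 8 were higher (36.4%, against 7.02% of all probe sets) and 0 lower with all 8 arrays, and 9 were higher and 0 lower against control array 2 alone. Defa43 read 8.92 and 9.01 against 11.09 and 10.58 (1.87, SE 0.52). Defa40 was at least 3.13-fold higher, and Defa25 read 6.18 and 9.13 against 11.01 and 10.15. Alpha-defensin genes are near-identical copies, so their probe sets may read shared sequence. Over the 22, the mean was 8.21 and 8.86 in control skin and 9.71 and 9.31 with tieghemelin. It was 9.42 and 9.66 with maslinic acid and 8.99 and 9.23 with minoxidil. With all 8 arrays 0 of them were called between tieghemelin and maslinic acid, and 0 between tieghemelin and minoxidil. Of 1429 odorant, vomeronasal and trace-amine receptor genes 192 were higher (13.4%, beside 7.02% of all probe sets) and 26 lower (1.82%, beside 4.73%) with all 8 arrays. Against control array 2 alone 139 were higher (9.73%, beside 6.63%) and 55 lower (3.85%, beside 7.12%). Among 219 probe sets on the Y chromosome 57 were higher (26%, beside 7.02%) and 1 lower with all 8 arrays, and 37 were higher (16.9%, beside 6.63%) and 8 lower against control array 2 alone, with medians of 2.20 and 0.14. The mean of the receptor genes was 7.95 and 8.67 in control skin and 8.82 and 8.76 with tieghemelin. It was 8.63 and 8.80 with maslinic acid and 8.89 and 8.94 with minoxidil. The mean of the Y probe sets was 9.64 on control array 1 and 13.28 on control array 2. On the treated arrays, minoxidil and maslinic acid included, it was 13.41 to 13.64. The multicopy genes Vmn2r84 and Zfp970, with differences of 3.02 and 3.37, read 6.29 and 8.27 on control array 1 and 8.93 and 12.36 on control array 2, and the differences were 1.70 and 1.32 against the latter.

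**Figure D5:**
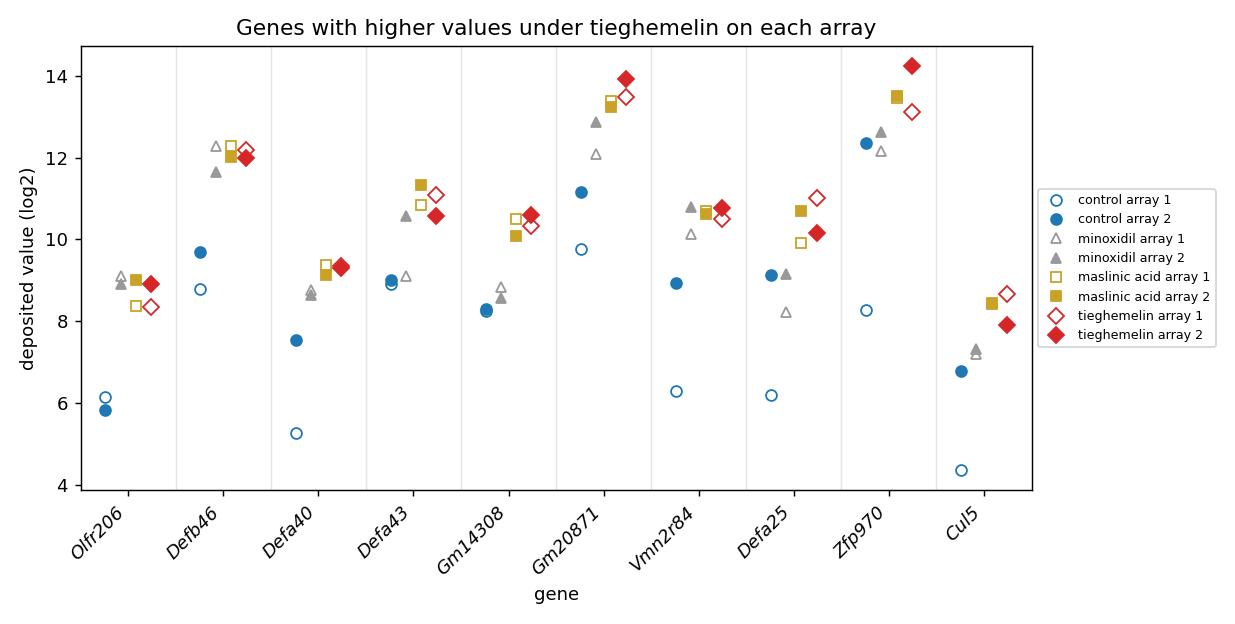
Deposited log2 values of 10 genes with higher values under tieghemelin on each of the 8 arrays, open symbols for array 1 and filled for array 2 of a group. The minoxidil and maslinic acid arrays sit near the tieghemelin arrays for Olfr206 and Defb46, where all 6 treated arrays read above both controls.

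Fewer probe sets met the thresholds between tieghemelin and the other treatments, in comparisons that share the tieghemelin arrays. Against maslinic acid 31 (0.14%) were higher and 37 (0.167%) lower at the thresholds, and against minoxidil 392 (1.77%) were higher and 340 (1.53%) lower. In limma 0 had an adjusted p under 0.05 in either, and unadjusted p values under 0.05 numbered 68 (0.306%) and 732 (3.3%). Without control array 1, 347 (1.56%) and 2314 (10.4%) met the thresholds, with 0 at an adjusted p under 0.05. Fast muscle genes were among the lower ones: 8 of 102 against maslinic acid and 10 of 102 against minoxidil (7.84% and 9.8%), and 0 higher in both. Tnnt3 read 13.88 and 9.82 with maslinic acid and 10.80 and 11.13 with minoxidil, differences of -4.04 (SE 1.15) and -3.16 (SE 1.15) for tieghemelin. Mylpf read 15.20 and 8.47 with maslinic acid, so that its pair spanned the tieghemelin values, and 15.44 and 13.23 with minoxidil. Acta1 differed by -2.00 from maslinic acid and -2.50 from minoxidil. The mean level of the 11 thin filament genes was 8.80 and 8.58 with tieghemelin, 10.99 and 9.07 with maslinic acid, 10.16 and 9.91 with minoxidil and 11.19 and 13.15 in control skin. Both tieghemelin arrays were lowest on that mean, and maslinic acid array 2 was the nearest. Over all 102 fast muscle genes the tieghemelin arrays averaged 8.49 and 8.41, again the lowest. Maslinic acid array 2 was close to them at 8.62, whereas maslinic acid array 1, at 9.46, equalled control array 1. The minoxidil arrays averaged 9.25 and 8.98, and control array 2 averaged 10.53. In the Z-disc list, maslinic acid array 2 averaged 8.24, beside 8.17 and 8.22 for the tieghemelin pair. Higher against minoxidil were Foxr2, a forkhead gene (12.04 and 11.58 against 9.60 and 9.56, 2.23) and Tchh (10.09 and 10.39 against 8.59 and 7.42, 2.23). S100a9 was higher than with maslinic acid by 1.18. Of the 19 macrophage genes 0 were called against maslinic acid, and their differences reached 0.62 at most. Whether the muscle content of the skin pieces differed was not tested.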

How the data were processed

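RNA of dorsal skin was hybridised to Clariom S Mouse arrays, 1 array per sample. The deposited values are log2 levels per probe set. Per the submitters' processing notes the tools were Affymetrix Expression Console, RMA and Transcriptome Analysis Console, version 4.0.1 in the design text. RMA usually brings arrays to 1 distribution, but the deposited ones do not share one: the SD over probe sets was 1.32 on control array 1 and 1.62 to 1.69 on the others. How control array 1 was scaled is not given in the sources used here. The genome build was not given in the sources used here, scanner files were not used here, and no signal was rescaled. Of 28846 probe sets 6640 control features were left out, and 19572 of the 22206 tested had 1 gene symbol, through the platform's annotation and RefSeq. The members and lists were chosen with earlier results of these data known.

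Differences were fitted with limma 3.58.1 in R 4.3.3 (lmFit and eBayes, 4 groups, all 8 arrays) and again without control array 1, with Benjamini-Hochberg adjustment over all 22206. The scripts were tested on simulated data. All simulated arrays had the same spread, taken from the groups other than control. The test therefore does not show how the fits behave with control arrays as far apart as these. Counts also used the thresholds of the design text. SE is the standard error of a difference in that fit. Background on an array was the median of 23 antigenomic probe sets. Some genes had every array of 1 group below it. The other group's mean was then set against the mean, per array, of the higher of background and the value, as "at least N-fold". For lower genes this includes the higher background of the control arrays, so it is no bound on the change in signal above background. Candidates for naming were, per direction, the 12 genes with the largest difference with all 8 arrays. They had to meet the thresholds in both fits, without overlap of the groups and with 1 group above background. Added were, from each of 54 lists, the first 4 and up to 6 members with the largest difference in each fit. Every probe set with an adjusted p under 0.05 without control array 1 and 6 per direction against each other treatment were also candidates. The text names only a part of them. Outside this rule, Obsl1, Tmod1, Stac3, Myh3, Myh13, Rps21, Rplp0, Rpl28, Rpl7l1, Ndufv1, Calml3, Cdsn and the cluster order of myosin genes were chosen after their values were seen. Another 82 list genes were not matched and not analysed here. Alternatives were a replicate block, a filter on dim probe sets, quantile normalisation, a common median, trend and robust settings, array weights, only the 4 arrays compared, and each array left out. Promoters are RefSeq windows on GRCm38.p6.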

Additional observations from a re-analysis of the deposited data

How the results depend on the processing

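Counts moved with the arrays left out. For tieghemelin against control, probe sets with an adjusted p under 0.05 numbered 0 with all 8 arrays and from 0 to 8427 with 1 array left out: 79 without control array 1, 8427 without control array 2, 3 without either maslinic acid array and 0 otherwise. They were 0 with the replicate block, the dim filter, quantile normalisation, a common median, trend and robust settings, array weights and only the 4 arrays. The weights were equal within each pair, 0.219 for either control array. That setting therefore could not set control array 1 apart from control array 2. The 2609 at the thresholds became 1346 with the dim filter, 1365 with array weights and 964 with only the 4 arrays, and lay between 815 and 10549 with 1 array left out. In the same order, the 68 against maslinic acid became 23, 408 and 363 (27 to 347), and the 732 against minoxidil 355, 2238 and 2320 (223 to 2314). The share of higher calls, 59.7%, was 48.2% without control array 1 and 76.2% with the dim filter. After the data had been seen, the 79 were refitted: array weights gave 161 (79 shared), quantile normalisation 38 (38 shared) and trend and robust settings 89 (77 shared). Beyond what these fits change by construction, the cause was not tested.

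The replicate block left 0 adjusted calls and 2565, 51 and 634 at the thresholds. Samples shared only a number: the deviations of same-numbered samples correlated at -0.17 to 0.0902. Under quantile normalisation Gm826 (-1.01) and Rpl41 (-0.80) turned. With 1 array of the 4 compared left out, these log2 differences took both signs or reached 0: Adipoq -0.52 to 0.28, Asph -3.00 to 1.42, Atp5a1 -3.54 to 0.62, B2m -2.73 to 0.90, Casq1 -3.39 to 0.32, Ccng1 -4.54 to 1.57, Col1a1 -0.65 to 2.01, Col3a1 -2.61 to 0.20, Csf1r -0.19 to 1.12, Dct -0.08 to 1.56, Gm826 -0.11 to 2.04, Kcnj8 -0.05 to 1.03, Krt10 -1.34 to 1.57, Krt14 -1.59 to 1.83, Krt71 -4.27 to 0.67, Lor -1.13 to 0.04, Mef2c -2.35 to 1.76, Mgat4f -0.01 to 2.51, Mki67 -0.61 to 0.36, Myh13 -1.96 to 0.38, Myh3 -0.88 to 0.76, Myh7 -0.51 to 0.33, Myot -3.83 to 1.68, Pfkm -2.85 to 0.89, Podn -0.87 to 2.09, Rpl41 -2.30 to 2.65, Serpinb6a -3.91 to 1.51, Shh -0.28 to 0.00, Stac3 -0.79 to 0.28, Tnnc1 -0.02 to 0.73, Tnni3 -0.34 to 0.90 and Vdac1 -3.33 to 0.97. Muscle list medians stayed below 0 in all 5 fast lists under every scaling and with either control left out. Precision is limited by 2 arrays per group, and 11.4% of probe sets were above background on no array of either group.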

Other observations

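Genes of other skin compartments were mixed. Pmel, a structural protein of melanosomes, read 6.64 and 7.87 in control skin and 9.04 and 8.71 with tieghemelin (1.62, SE 0.46, and 1.01 against control array 2 alone). The melanocyte list held 21 genes, including Pard3, which was matched through the synonym Asip and is no melanocyte marker. Of the 21, 2 were higher and 0 lower with all 8 arrays (7.02% and 4.73% of all probe sets). Their median difference was 0.17, and 0.07 against control array 2 alone. Dct, another melanocyte gene, lay between or near its controls at 8.88 and 8.67 against 7.21 and 8.85. Fasn, the fatty acid synthase, read 9.89 and 9.73 against 8.96 and 8.32 (-1.17, SE 0.40), and Far1, which makes fatty alcohols, was at least 2.07-fold lower. The sebaceous list of 24 held 2 lower and 2 higher genes with all 8 arrays, and 6 lower and 1 higher against control array 2 alone. Ccr7, the receptor that guides dendritic cells to lymph nodes, read 8.82 and 10.05 against 11.39 and 11.03 (1.78, SE 0.58) and did not pass against control array 2 alone (1.17).

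Among 36 cell cycle genes 2 were lower and 2 higher with all 8 arrays, and 4 lower and 1 higher against control array 2 alone. Rrm1, a subunit of ribonucleotide reductase, read 9.48 and 8.88 against 7.11 and 8.03 (-1.61, SE 0.49), while Mki67, the proliferation marker, read 8.77 and 9.75 against 9.14 and 9.13 (-0.13, SE 0.43). Bag3, a co-chaperone with a known role in muscle, read 8.27 and 7.89 in control skin and was below background on both tieghemelin arrays, at least 2.13-fold lower. No member of the 13 potassium channel, sulfotransferase and prostaglandin genes, which minoxidil is linked to, passed with all 8 arrays, and 1 was lower against control array 2 alone. Kcnj8, the pore of a channel that minoxidil opens, read 7.80 and 8.88 against 9.03 and 8.64.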
